A study of Rattus norvegicus with 4 samples.

Results

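The fibrillar collagens are the rope-forming proteins of the extracellular matrix, and 8 of their genes, Col1a1, Col1a2, Col2a1, Col3a1, Col5a1, Col5a2, Col5a3 and Col11a1, were followed here in rat retinal neurospheres. The members were taken as every probe set whose platform annotation gave exactly 1 gene symbol and that symbol was one of the 8, which gave 16 probe sets of the 31099 on the array. The family was chosen by its differences in the comparison described here, so the differences of its members, and the counts of members past the threshold used for all probe sets, are given as a description and support nothing. The neurospheres were ball-shaped free-floating cultures from the retina of Sprague Dawley rats at embryonic day 18. One condition held epidermal growth factor (EGF) plus endothelial cell conditioned medium, and the other EGF alone. Each condition had 2 arrays, from separate pools of embryos per the series description, and the source of the endothelial cells is not given in the sources used here. All neurospheres received EGF, and none of the groups analysed received medium conditioned by cells other than endothelial cells. A difference particular to endothelial cell medium and one shared by any conditioned medium therefore cannot be told apart. A change in the amount of a cell type and a change in RNA per cell cannot be told apart in such bulk RNA.

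Fibrillar collagen chains fold as trimers in the endoplasmic reticulum, are secreted as procollagens, lose their end pieces outside the cell and then assemble into banded fibrils that are cross-linked by lysyl oxidases. Type I collagen combines the chains of Col1a1 and Col1a2, type II is made of Col2a1 alone, type III of Col3a1 alone, type V of Col5a1 with Col5a2 and sometimes Col5a3, and type XI of Col11a1 with Col11a2 and a chain encoded by Col2a1. Types V and XI are minor components that start fibrils and limit their width. In the eye, type I collagen is abundant in sclera and cornea, and type II with type XI collagen forms the fibrils of the vitreous.

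The values are log2 expression values of probe sets summarised by RMA (robust multi-array average). They were quantile normalized across the 4 arrays, because the deposited array medians were 6.84 and 6.56 log2 with conditioned medium and 6.03 and 6.25 log2 with EGF alone. A probe set was called past the threshold when the limma adjusted p was under 0.05 in the same direction on quantile normalized, deposited and median-centred values. By that rule 4.92% of all 31042 non-control probe sets were higher with conditioned medium and 0.986% were lower. The 306 probe sets lower by that rule compare with 307 lower on deposited values alone and 2535 lower on quantile normalized values alone. As a measure of RNA quality, the 3' minus 5' signal of the actin controls, larger in degraded RNA, was 1.54 and 1.37 log2 with conditioned medium and 1.99 and 2.08 log2 with EGF alone, so it moved with the condition in everything that follows, and its part in the results was not tested. Of 12 retinal progenitor markers 10 had a probe set on the array. By their brightest probe sets, 0 of those 10 lay among the dimmest 30% of probe sets. The share of all genes above that limit was not counted.

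Of the 16 fibrillar collagen probe sets, 9 were past the threshold and higher with conditioned medium, and 0 were past it and lower. The 9 belonged to 5 genes, Col1a2, Col5a1, Col5a2, Col5a3 and Col11a1, while 0 probe sets of Col1a1, Col2a1 and Col3a1 were past it. Because the genes were chosen with this contrast known, nothing is read from the count against the 4.92% of all probe sets. Differences ran widely within the family, from -0.52 log2 for 1 probe set of Col2a1 to 2.95 log2 for both probe sets of Col1a2. The median over the 16 was 0.76 log2, beside -0.01 log2 for all probe sets, and 6 of the 16 were at least 1 log2 higher with conditioned medium, as 1.62% of all probe sets were. As deposited, the medians were 1.28 log2 for the 16 and 0.48 log2 for all probe sets.

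**Figure D1:**
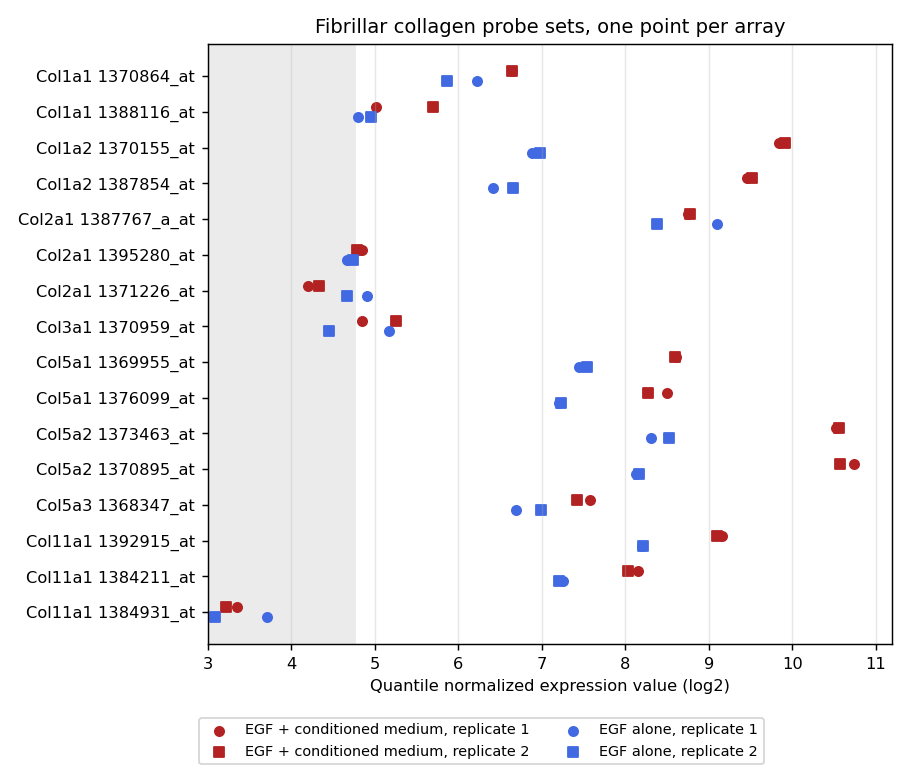
Quantile normalized expression value (log2, x axis) of each fibrillar collagen probe set (rows) on each array, with conditioned-medium arrays in red above EGF arrays in blue, circles for replicate 1 and squares for replicate 2. The grey band marks values below the 4.76 log2 limit of the dimmest 30% of probe sets. The red and blue points of Col1a2 and Col5a2 are far apart, whereas those of Col3a1 and of the brightest Col2a1 probe set interleave.

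The stretches of promoter below come from RefSeq on rat build GRCr8, which had a window of 250 bases before and 50 bases after the annotated start for Col1a2, Col5a1, Col5a2, Col5a3 and Col11a1. Stretches are shown for the windows that held CCAAT or TATAAA. The CCAAT box, a site bound by the factor NF-Y, is a known element of several fibrillar collagen promoters. The 5 genes with a window are also the ones with a probe set past the threshold. Col1a1, Col2a1 and Col3a1 had no such window, so their promoters were not compared. Capitals mark the letters CCAAT (or ATTGG, its other strand) and TATAAA. Each stretch runs from up to 30 bases before its first such match to up to 30 bases after its last, with nothing beyond the annotated start. The Col1a2 stretch is chr4:33518307-33518422 on the plus strand, the Col5a3 stretch chr8:27626096-27626160 on the minus strand and the Col11a1 stretch chr2:204508886-204509093 on the plus strand.
Col1a2: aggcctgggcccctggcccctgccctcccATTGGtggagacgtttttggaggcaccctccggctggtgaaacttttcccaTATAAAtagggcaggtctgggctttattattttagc
Col5a3: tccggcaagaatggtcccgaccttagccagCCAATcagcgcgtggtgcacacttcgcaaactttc
Col11a1: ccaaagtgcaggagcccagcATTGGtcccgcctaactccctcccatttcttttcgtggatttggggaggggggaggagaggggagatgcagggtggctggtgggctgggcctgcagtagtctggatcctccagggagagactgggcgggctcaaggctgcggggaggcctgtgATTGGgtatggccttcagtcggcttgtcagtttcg

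CCAAT on either strand was found in 3 of the 5 windows, those of Col1a2, Col5a3 and Col11a1, against 37.5% of the 33469 RefSeq promoter windows of the same length. TATAAA on either strand was found in the Col1a2 window only, downstream of its ATTGG, and in 14.2% of all windows. Its first letter lay at -170 relative to the annotated start, farther than a TATA box usually lies from where transcription starts, and whether that annotated start is the main one was not checked. The GC box GGGCGG, a letter pattern bound by Sp1, was found on either strand in the windows of Col5a1, Col5a3 and Col11a1 and in 33.1% of all windows. CAGACA, the core letters of many SMAD sites, was found in the Col5a2 window and in 21.1% of all windows. No matches overlapped one another in the 5 windows. These matches describe the letters of the windows only.

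The type I chains differed most from each other. Col1a2 probe set 1370155_at had 9.85 and 9.92 log2 in conditioned-medium arrays, against 6.88 and 6.98 log2 in EGF arrays. The groups were 2.87 log2 apart at their closest, far more than replicates of either condition differed. The difference of 2.95 ± 0.10 log2 (limma SE) is a 7.75-fold higher value with conditioned medium, and it was the 4th highest of 31042 signed differences. The other Col1a2 probe set, 1387854_at, had 9.46 and 9.52 log2 with conditioned medium and 6.42 and 6.66 log2 with EGF alone, which gave 2.95 ± 0.12 log2 (SE), the 5th highest. The deposited differences were 3.37 and 3.40 log2 in turn, so both probe sets gave the same size of change on either scale.

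Col1a1, whose chain is the main component of type I collagen, was not past the threshold under all 3 scalings with either of its probe sets. On deposited values alone both passed, with differences of 1.17 and 1.28 log2. Probe set 1370864_at had 6.64 log2 on both conditioned-medium arrays, against 6.22 and 5.86 log2 in EGF arrays, a difference of 0.60 ± 0.21 log2 (SE). Probe set 1388116_at had 5.01 and 5.70 log2 with conditioned medium and 4.80 and 4.95 log2 with EGF alone, a difference of 0.48 ± 0.29 log2 (SE). Neither pair of groups overlapped, but for the second the closest arrays were only 0.06 log2 apart. Between the brightest probe sets, the difference of Col1a2 exceeded that of Col1a1 by 2.35 log2. Set to 0 at the EGF mean, the log2 ratio of the Col1a2 to the Col1a1 value was 2.32 and 2.39 in conditioned-medium arrays and -0.23 and 0.23 in EGF arrays, so the ratio changed on both arrays by much more than it varied between EGF replicates.

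The type V chains were all higher with conditioned medium, by sizes that differed between chains. Col5a2 probe set 1370895_at had 10.74 and 10.57 log2 in conditioned-medium arrays, against 8.13 and 8.16 log2 in EGF arrays, a difference of 2.51 ± 0.09 log2 (SE) or 5.68-fold. Its probe set 1373463_at had 10.53 and 10.55 log2 with conditioned medium and 8.31 and 8.53 log2 with EGF alone, a difference of 2.12 ± 0.09 log2 (SE) or 4.35-fold. The Col5a2 groups were at least 2.00 log2 apart in both probe sets, and their signed differences ranked 15th and 29th from the highest of all probe sets.

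Col5a1, the chain present in nearly all type V molecules, had 8.60 log2 on both conditioned-medium arrays with probe set 1369955_at, against 7.45 and 7.55 log2 in EGF arrays (difference 1.11 ± 0.11 log2, SE). Its probe set 1376099_at had 8.50 and 8.28 log2 with conditioned medium and 7.21 and 7.23 log2 with EGF alone (difference 1.17 ± 0.12 log2, SE). Both probe sets therefore put Col5a1 at about the same change, with groups more than 1 log2 apart. Col5a3, the least widely used type V chain, had 7.58 and 7.43 log2 with conditioned medium and 6.69 and 6.99 log2 with EGF alone (difference 0.66 ± 0.16 log2, SE). Its groups did not overlap, but this was the smallest difference past the threshold among the collagens, and the call was lost when EGF replicate 1 or either conditioned-medium array was left out under a robust variance prior. Between brightest probe sets, the difference of Col5a2 exceeded that of Col5a1 by 1.02 log2 and that of Col5a3 by 1.46 log2. The array-by-array ratios of these chains did not overlap between the conditions. How often ratios of other gene pairs did not overlap was not counted, so nothing is read from that.

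**Figure D2:**
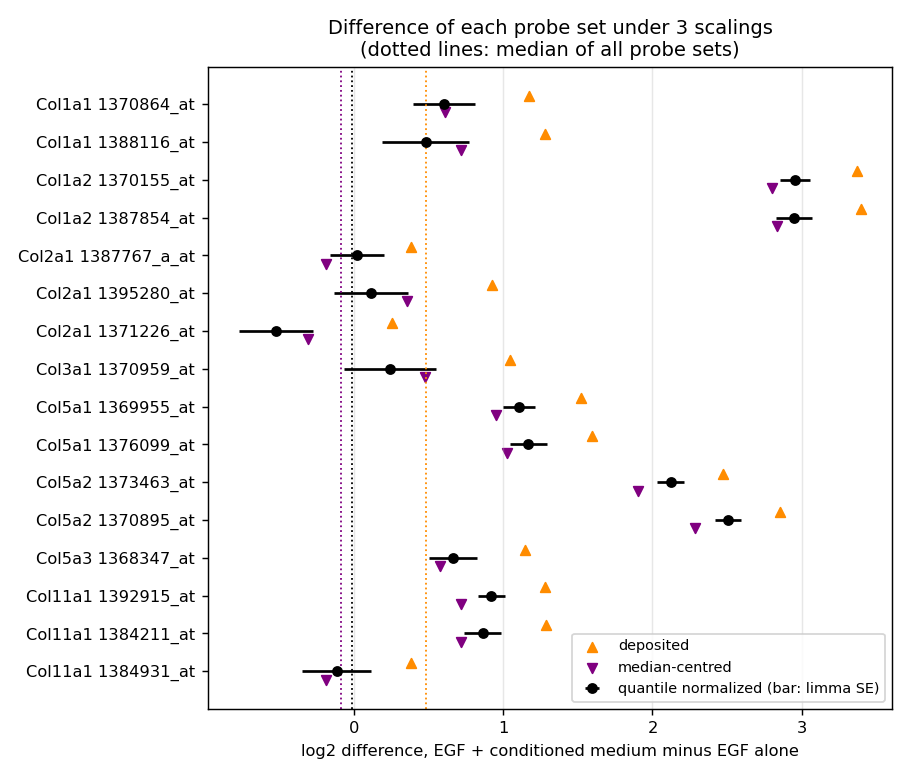
Difference of each fibrillar collagen probe set, conditioned medium with EGF minus EGF alone (log2, x axis), on quantile normalized (black, bar is the limma SE), deposited (orange) and median-centred (purple) values, with the median of all probe sets as dotted lines of the same colours. Col1a2 lies at 2.80 to 3.40 log2 whichever scaling is used, and the brightest Col2a1 probe set runs from -0.19 to 0.38 log2, its sign set by the scaling.

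Col11a1, a type XI chain, was higher with conditioned medium in its brighter probe sets. Probe set 1392915_at had 9.16 and 9.10 log2 in conditioned-medium arrays, against 8.20 and 8.21 log2 in EGF arrays, a difference of 0.92 ± 0.09 log2 (SE). Probe set 1384211_at had 8.16 and 8.03 log2 with conditioned medium and 7.26 and 7.21 log2 with EGF alone, a difference of 0.86 ± 0.12 log2 (SE). In both, conditioned-medium arrays lay above EGF arrays by more than the replicates differed. The remaining probe set, 1384931_at, had 3.36 and 3.22 log2 with conditioned medium and 3.71 and 3.09 log2 with EGF alone. It was dimmer than all but 4.76% of probe sets, its groups overlapped, and its difference of -0.11 ± 0.23 log2 (SE) was 0.38 log2 as deposited, so it gives no direction.

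Col2a1, the chain of type II collagen and a partner of Col11a1 in type XI, showed no settled difference. Its brightest probe set, 1387767_a_at, had 8.75 and 8.77 log2 in conditioned-medium arrays, against 9.10 and 8.39 log2 in EGF arrays. The EGF arrays thus lay on either side of the conditioned-medium arrays, and the difference of 0.02 ± 0.18 log2 (SE) was -0.34 log2 or 0.38 log2 depending on which EGF array was left out. Probe set 1395280_at had 4.85 and 4.79 log2 with conditioned medium and 4.67 and 4.74 log2 with EGF alone, a difference of 0.11 ± 0.25 log2 (SE). Probe set 1371226_at had 4.20 and 4.33 log2 with conditioned medium and 4.91 and 4.67 log2 with EGF alone, the single case with lower conditioned-medium arrays and no overlap. That difference of -0.52 ± 0.25 log2 (SE) was 0.26 log2 as deposited, and both of these probe sets were among the dimmest 30%.

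Col3a1, the chain of type III collagen, which often shares fibrils with type I, had 4.85 and 5.25 log2 in conditioned-medium arrays, against 5.17 and 4.46 log2 in EGF arrays. On quantile normalized values the groups overlapped, with a difference of 0.24 ± 0.31 log2 (SE). As deposited the difference was 1.04 log2, which passed on that scaling alone. In the RefSeq gene table for GRCr8, Col3a1 and Col5a2 are immediate neighbours among protein-coding genes. These neighbours differed in their change by 1.88 log2, with the Col5a2 to Col3a1 ratio, set to 0 at the EGF mean, at 2.07 and 1.69 log2 in conditioned-medium arrays and -0.46 and 0.46 log2 in EGF arrays. Only 1 probe set measured Col3a1, and its mean lay above just 32.6% of all probe sets, so its size of change is poorly determined.

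On quantile normalized values the conditioned-medium arrays lay above the EGF arrays without overlap in 12 of the 16 probe sets, below them in 1, and overlapped them in 3. Among all probe sets 26.9% lay above and 29.4% below without overlap. As deposited, 14 of the 16 lay above without overlap. The median of all probe sets was 0.48 log2 there, and their share without overlap was not counted, so nothing is read from the 14. The smallest difference past the threshold was that of Col5a3 (0.66 log2), and the largest that missed it was that of Col1a1 probe set 1370864_at (0.60 log2).

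**Figure D3:**
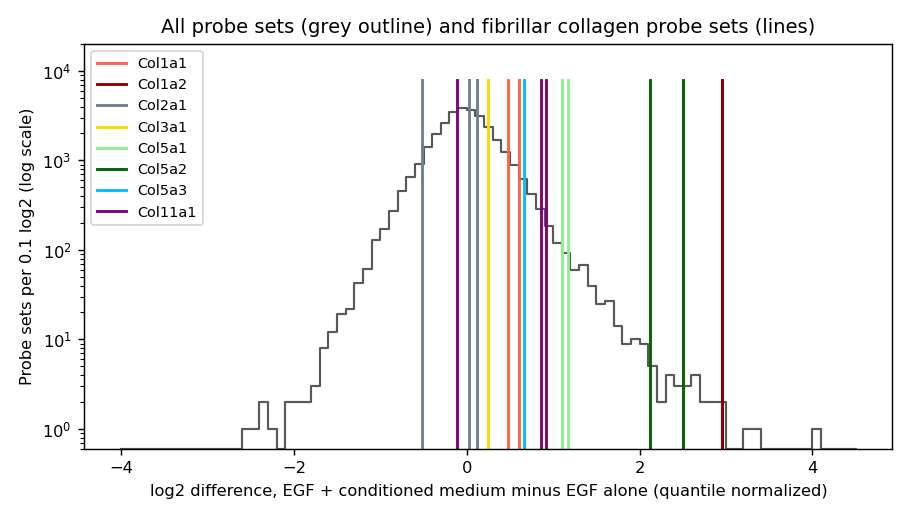
Number of probe sets per 0.1 log2 of difference (grey outline, log y axis) for all 31042 non-control probe sets, conditioned medium with EGF minus EGF alone on quantile normalized values, with a coloured line for each fibrillar collagen probe set. Col1a2 and Col5a2 lie in the far right tail, Col5a1 and the brighter Col11a1 probe sets in its shoulder, and Col2a1, Col3a1 and the dimmest Col11a1 probe set in the bulk.

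A further 3 fibrillar collagen genes, which were not among the 8, were on the array with 1 probe set each. Col11a2, the usual partner of Col11a1, had 6.59 and 6.37 log2 with conditioned medium and 6.34 and 6.32 log2 with EGF alone, a difference of 0.15 ± 0.19 log2 (SE). Col27a1 differed by 0.21 ± 0.29 log2 and Col24a1 by -0.18 ± 0.18 log2 (SE), the second from a dim probe set. In limma 0 of the 3 were past the threshold, and 0 were at an unadjusted p under 0.05 under all 3 scalings. On deposited values alone 1 of the 3 passed. The differences of Col24a1 and Col27a1 were 0.26 and 0.99 log2 as deposited.

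The genes whose values over the 4 arrays were closest to the brightest Col1a2 probe set, each centred on its own mean, were Bag3, Cnn2, Cpeb1, Tagln and Spn, at Euclidean distances of 0.09, 0.23, 0.35, 0.36 and 0.43 log2 among 14209 genes. Bag3 is a co-chaperone, Cnn2 a calponin, Cpeb1 an RNA-binding protein, Tagln the actin-binding transgelin and Spn a leukocyte sialoglycoprotein. The closest to the brightest Col2a1 probe set were Cdc27, Ocln, Dcakd, Arnt and Igsf6, at 0.04 to 0.07 log2, all of which had EGF arrays on either side of the conditioned-medium arrays. With 4 arrays this likeness says little beyond the size of the difference and of the gap between replicates.

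Genes that fold and modify collagen chains were compared next, each by its brightest probe set, beside a background of 6.58% of 14217 genes higher and 1.35% lower with conditioned medium. The gene lists here and below were chosen with earlier results of these data known. Their counts and adjusted p-values are therefore a description and no separate support for the collagen differences. Of 22 such genes on the array 5 rose and 0 fell, with a median difference of 0.26 log2. Serpinh1, the collagen-specific chaperone HSP47, had 11.40 and 11.26 log2 with conditioned medium and 9.75 and 9.91 log2 with EGF alone, a rise of 1.49 ± 0.08 log2 (SE, limma adjusted p = 3.74e-06), and its other probe set differed by 0.94 log2. The lysyl hydroxylases Plod1 (0.95 ± 0.13 log2, adjusted p = 6.17e-04) and Plod2 (0.70 ± 0.07 log2, adjusted p = 1.65e-04) rose too. Sec24d, a coat protein of the vesicles that carry procollagen out of the endoplasmic reticulum, rose by 1.14 ± 0.12 log2 (adjusted p = 2.07e-04), and the fifth gene was the prolyl isomerase Fkbp14 (0.69 ± 0.17 log2). The prolyl hydroxylase subunits P4ha2 (0.67 ± 0.23 log2) and P4ha3 (0.60 ± 0.29 log2) were not past the threshold. Fkbp14 was named after its value was seen.

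Of 6 procollagen processing and cross-linking genes on the array 2 rose and 0 fell. Pcolce, an enhancer of the protease that removes the carboxy-terminal propeptide, averaged 7.98 ± 0.03 log2 with conditioned medium (SD, n = 2) and had 6.20 log2 on both EGF arrays, a rise of 1.78 ± 0.15 log2 (SE, limma adjusted p = 4.47e-05). Loxl1, a lysyl oxidase that cross-links matrix fibres, had 7.86 and 7.79 log2 with conditioned medium and 6.67 and 6.68 log2 with EGF alone, a rise of 1.15 ± 0.14 log2 (adjusted p = 3.69e-04). Both were separated by far more than their replicates differed. Bmp1, the protease itself, was not past the threshold at 0.35 ± 0.13 log2, and its other probe set differed by -0.34 log2. Loxl2 (0.36 ± 0.24 log2), a dim probe set, was not past it either.

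Among proteins that sit on or beside collagen fibrils, 3 of 20 genes rose and 0 fell, with a median of 0.03 log2. Sparc, a collagen-binding matricellular protein, had 12.30 log2 on both conditioned-medium arrays and 11.14 and 11.17 log2 in EGF arrays, a rise of 1.14 ± 0.07 log2 (SE, limma adjusted p = 5.55e-06). Col9a1, a chain of the type IX collagen that decorates type II fibrils, rose by 0.74 ± 0.07 log2 (adjusted p = 1.10e-04), and fibronectin, Fn1, by 1.08 ± 0.17 log2 (adjusted p = 1.97e-03). Postn (0.60 ± 0.19 log2) and the proteoglycan Bgn (0.51 ± 0.27 log2) were not past the threshold. Of the 20 genes 9 were dim, among them the small proteoglycans Dcn, Lum, Fmod, Ogn, Prelp, Aspn and Omd, so their differences are weakly measured.

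Of 5 collagen receptor genes on the array 2 rose, the integrin subunits Itga1 (1.59 ± 0.26 log2 SE, limma adjusted p = 2.19e-03) and Itgb1 (0.99 ± 0.08 log2, adjusted p = 3.82e-05), which together form a collagen-binding integrin. The discoidin domain receptors Ddr1 (0.32 ± 0.11 log2) and Ddr2 (0.26 ± 0.27 log2) were not past the threshold. Of 12 genes of collagen turnover 6 rose and 0 fell. All 4 tissue inhibitors of metalloproteinases were among them, with Timp1 at 1.86 ± 0.09 log2 (adjusted p = 9.09e-07), Timp4 at 1.38 ± 0.14 log2 (adjusted p = 1.40e-04), Timp3 at 0.96 ± 0.11 log2 (adjusted p = 2.38e-04) and Timp2 at 0.61 ± 0.10 log2. The membrane-bound collagenase Mmp14 rose by 0.65 ± 0.07 log2 (adjusted p = 1.74e-04) and the protease Fap, a dim probe set, by 0.89 ± 0.27 log2. The lowest of the 4 Timp3 probe sets differed by -0.09 log2, so the rise of Timp3 is not seen in all of them. Ctsk, the collagen-degrading cathepsin K (-0.52 ± 0.27 log2), and Mmp3 (0.36 ± 0.21 log2) were not past the threshold. Timp2 and Fap were named after their values were seen. With 1 array left out and a robust variance prior, Fap was kept only without EGF replicate 2, and Timp2 only without EGF replicate 2 or conditioned-medium replicate 1.

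Of 14 regulators of collagen genes on the array 4 rose and 0 fell under all 3 scalings. Ets1, an ETS transcription factor, rose by 3.32 ± 0.20 log2 (SE, limma adjusted p = 5.57e-06), Ccn2, a matricellular protein induced by TGF-beta, by 1.80 ± 0.09 log2 (adjusted p = 1.20e-06), the ligand Tgfb1 by 0.96 ± 0.25 log2 (adjusted p = 0.0269) and its signal transducer Smad3 by 0.59 ± 0.09 log2 (adjusted p = 1.99e-03). Scx, a tendon transcription factor (0.57 ± 0.16 log2), and Smad2 (-0.28 ± 0.07 log2) were not past the threshold under all 3 scalings. Smad2 was lower on quantile normalized values alone and differed by 0.03 log2 as deposited. With 1 array left out and a robust variance prior, Tgfb1 was kept only without EGF replicate 1 and Smad3 only without EGF replicate 2.

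**Figure D4:**
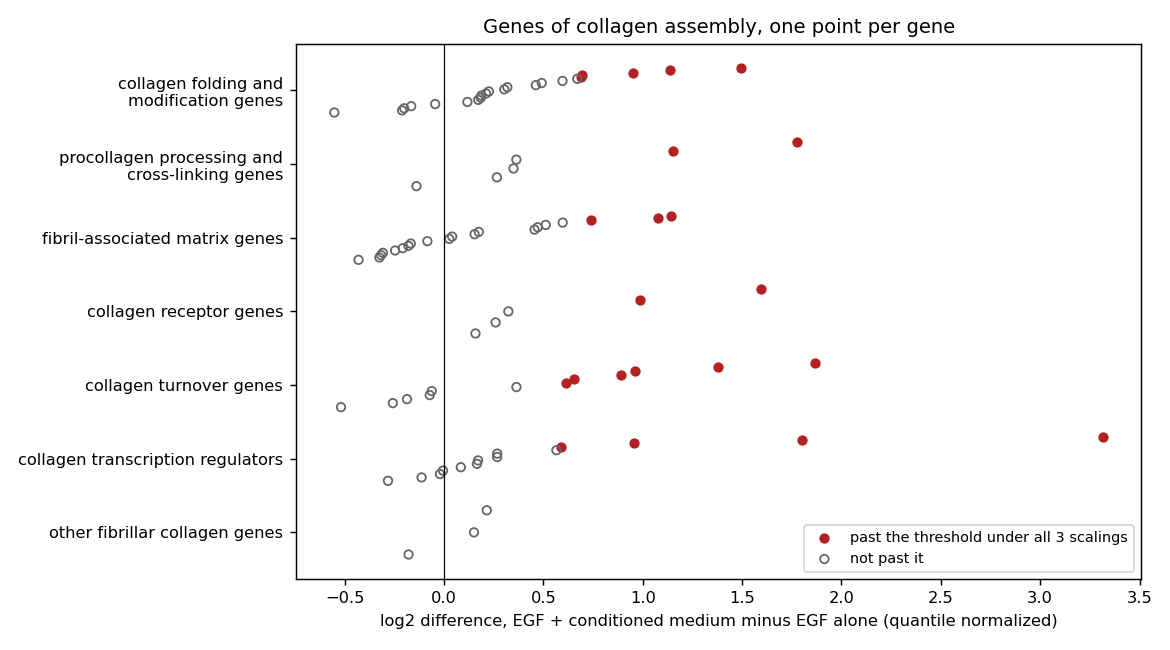
Difference of each gene of collagen assembly and its regulation, conditioned medium with EGF minus EGF alone (log2 on quantile normalized values, x axis), by list (rows), with filled red points for genes past the threshold under all 3 scalings and open points for the others. Every filled point lies to the right of 0, and most genes of each list except collagen turnover are open. A filled point left of 0 would also need a lower call on deposited values, where only 307 of all probe sets were lower.

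Markers of other cell types were read against the same background of 6.58% of genes higher and 1.35% lower. Of 15 fibroblast and other mesenchymal markers, collagens left out, 2 rose (Twist1 at 1.36 ± 0.24 log2 and Fbln2 at 0.97 ± 0.16 log2, SE), and 9 were dim, among them the defining Dcn, Lum, Prrx1 and Thy1. Their summed linear signal was 781 and 748 with conditioned medium and 516 and 542 with EGF alone. Of 11 pericyte and smooth muscle markers 3 rose (Tagln at 2.69 ± 0.23 log2, Rgs5 at 1.44 ± 0.24 log2 and Pdgfrb at 0.87 ± 0.22 log2), with sums of 642 and 728 with conditioned medium and 373 and 392 with EGF alone. Of the 11, 5 were dim, Rgs5 among them, and the lowest Pdgfrb probe set differed by -0.16 log2. Both sums were thus higher with conditioned medium, and their part in the collagen differences was not tested.

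Of 13 endothelial markers 1 rose, Flt1 (2.09 ± 0.26 log2, SE), a share close to the 6.58% of all genes, while Pecam1, Tie1, Tek, Erg, Emcn and Sox17 were dim, and the sums were 5969 and 5880 with conditioned medium and 4408 and 4550 with EGF alone. Kdr and Esam did not pass under all 3 scalings (0.41 ± 0.07 and 0.72 ± 0.23 log2). Kdr, at 12.40 log2 with conditioned medium and 11.99 log2 with EGF alone, made up most of the endothelial sums. Microglia markers rose in 7 of 13, including Tyrobp (1.16 ± 0.19 log2), with sums of 997 and 1049 with conditioned medium and 562 and 610 with EGF alone. Of the 13 microglia markers 3 were dim, among them C1qb, which rose. Lens markers rose in 2 of 13, with sums of 753 and 762 with conditioned medium and 461 and 444 with EGF alone. Of the 13 lens markers 5 were dim, among them Cryba1, which rose. The crystallin Cryga was lower on quantile normalized values (-1.03 ± 0.25 log2 SE, limma adjusted p = 0.0166) without passing under all 3 scalings. Muller glia markers rose in 3 of 8, and their sums were 35473 and 37482 with conditioned medium and 29496 and 28076 with EGF alone. Apoe rose by 0.68 ± 0.08 log2 (SE) and Slc1a3 by 0.65 ± 0.08 log2 in their brightest probe sets. The lowest probe set of Apoe differed by -0.42 log2 and that of Slc1a3 by -0.65 log2, so neither rise is seen in all probe sets. Rlbp1, also on this list, is given below. Retinal progenitor markers rose in 5 of 10, with sums of 36730 and 36174 with conditioned medium and 26442 and 28419 with EGF alone. Pigment epithelium and ciliary markers rose in 1 of 9, yet their sums were lower with conditioned medium, at 1254 and 1287, against 1827 and 1901 with EGF alone. Of these markers, Dct, a melanin synthesis enzyme (-0.78 ± 0.12 log2 SE, limma adjusted p = 1.27e-03), and the retinoid-binding protein Rlbp1 (-0.70 ± 0.08 log2, adjusted p = 1.89e-04), which is also a Muller glia marker, were lower on quantile normalized and median-centred values and did not pass as deposited. Rlbp1, at 9.63 log2 with conditioned medium and 10.34 log2 with EGF alone, made up most of the pigment epithelium sums. Of 8 chondrocyte markers, collagens left out, 0 passed in limma and 0 were at an unadjusted p under 0.05 under all 3 scalings. Their sums were 230 and 239 with conditioned medium and 214 and 234 with EGF alone, and 6 of the 8 were dim. Of 5 astrocyte markers 0 passed and 1 was at an unadjusted p under 0.05 under all 3 scalings. The part of these cell types in the collagen differences was not tested.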

How the data were processed

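RNA of 4 rat retinal neurosphere cultures was measured on Affymetrix Rat 230 2.0 arrays, 2 per condition. The deposited values are log2 summaries that the authors made with RMA in GenePattern, per the labels, with no version or options given in the sources used here. Each array held only 2738 to 3291 distinct deposited values. On EGF replicate 1, the array with the fewest, neighbouring values between 3 and 5 log2 were a median of 0.05 log2 apart. Small differences of dim probe sets are therefore coarse. The 57 control probe sets were left out of the fit, which covered 31042. The platform table gave 1 symbol to 20826, several to 436 and none to 9780. Of the 20826, 20758 matched the RefSeq table of GRCr8 by gene identifier.

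Values were quantile normalized and fitted in R 4.3.3 by limma 3.58.1 (eBayes, trend by intensity, two-sided tests, Benjamini-Hochberg over all 31042), without a filter on dim probe sets. A call needed an adjusted p under 0.05 in the same direction on quantile normalized, deposited and median-centred values. The number of arrays limits the precision, and on deposited values the spread came wholly from the trend. Single-scaling fits, a filter on the lowest 30% of means, no trend, a replicate block and single-array omissions were alternatives. Hybridization-control scaling and a robust variance prior were chosen after seeing the data.

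Labels tie no replicate number to an embryo pool. Same-numbered arrays deviated from their group means with a correlation of -0.02 across probe sets (2 pairs), so the numbers were not taken as pairs. The members and gene lists were chosen with earlier results of these data known. Named were every member probe set, per collagen list up to 4 genes past the threshold with the smallest p and up to 2 others with the largest difference, per marker list up to 3 genes with the smallest p, and the 5 genes closest in pattern to Col1a2 and to Col2a1. Dim markers named without a value were chosen afterwards. The procedure was run on simulated data with continuous values. Those lacked the ties of the deposited values, so that run does not cover the effect of ties.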

Additional observations from a re-analysis of the deposited data

How the results depend on the processing

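The counts depended on the scaling. Over all probe sets 1832 were called, against 5074 on quantile normalized, 9995 on deposited, 7156 on median-centred and 9613 on hybridization-control scaled values alone, and 652 without an intensity trend. Higher calls numbered 2539 of the first, 9688 of the second and 1943 of the third (50.0%, 96.9% and 27.2%), and the median of all probe sets lay at -0.01, 0.48 and -0.09 log2. The 9 fibrillar collagen calls were 9, 12, 9 and 12 on the same 4 scalings, 8 without the trend, 10 with the lowest 30% left out and 10 with a robust variance prior. Those added on deposited values were both probe sets of Col1a1 and that of Col3a1. Quantile normalization alone gave 7 collagen regulators, 6 higher and 1 lower. Deposited values alone gave 17 folding, 5 processing, 7 fibril-associated, 4 receptor and 9 regulator genes and 1 other fibrillar collagen. Hybridization-control scaling, chosen after seeing the data, gave 16, 5, 7, 4 and 8 for the first 5 of these lists. Median centring alone gave 8 folding genes, 5 higher and 3 lower, and 5 fibril-associated genes, 4 higher and 1 lower. Without the trend, 2 folding, 1 fibril-associated, 1 receptor and 3 turnover genes were called.

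With the replicate block, 1464 probe sets and 9 fibrillar collagen probe sets were called, and the counts of the 7 collagen-related gene lists did not change. The marker lists were not run with the block. When any 1 array was left out, limma called 0 probe sets under all 3 scalings, in every list and among the collagens. At an unadjusted p under 0.05, 1923 to 2870 of all probe sets and 9 or 10 collagen probe sets remained past all 3 scalings. In these fits 573 to 663 quantile normalized probe sets had an exact variance of 0, because of tied values, and the prior had 1.74 to 2.16 degrees of freedom. A robust variance prior, chosen after seeing this, had 6.23 to 23.3 degrees of freedom and called 827 probe sets without conditioned-medium replicate 2, 1059 without conditioned-medium replicate 1, and up to 1828 otherwise. It called 8 or 9 collagen probe sets, 4 to 6 folding, 2 processing, 2 to 4 fibril-associated, 2 receptor, 4 or 5 turnover, 2 to 4 regulator and 0 other fibrillar collagen genes. The collagen call lost was that of Col5a3. Without EGF replicate 1, Col1a1 probe set 1370864_at was called in its place. Fn1 was lost without either conditioned-medium array, Mmp14 without EGF replicate 2, and Fkbp14 in all omissions except EGF replicate 1. Of 64 collagen differences with 1 array left out, 61 kept their sign, the exceptions being single omissions for Col3a1, the brightest Col2a1 and the dimmest Col11a1 probe set.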
